A study of Mus musculus with 4 samples.

Results

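The 26S proteasome is the ATP-dependent protease that degrades ubiquitin-tagged proteins, among them cyclins and other short-lived regulators of the cell cycle and of the DNA damage response. Its core particle is a stack of rings of α and β subunits that encloses the active sites. Its regulatory particle has a base, which unfolds substrates with a ring of ATPases, and a lid, which removes ubiquitin. The probe sets described here are those whose listed symbol starts with Psma, Psmb, Psmc, Psmd, Psme or Psmg followed by a digit. Psmb8, Psmb9, Psme1 and Psme2, subunits induced by interferon, were left out. In all, 56 annotated probe sets matched, 5 were left out, and 51 probe sets of 45 genes remained, of 23410 annotated probe sets on each array. One of the 5 lists both Psme2 and Psme2b.

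The cells were Dalton's lymphoma ascites (DLA) cells, a transplantable mouse tumour that grows free in the peritoneal fluid. Male Swiss albino mice of 4 to 5 months carried the tumour cells in the peritoneal cavity. The control group, 2 arrays, came from unirradiated tumour-bearing mice. The irradiated group, 2 arrays, came from tumour-bearing mice given 2 Gy of electron radiation to the whole body on day 8 after implantation, with cells collected 48 h later. Both groups therefore share the tumour and the host, and cells of the host were not removed by any step the labels describe. The labels call the arrays biological replicates without saying whether a sample was 1 mouse or a pool, so p-values measure the spread between these samples. All values are log2 intensities. In such bulk RNA, fewer cells of a type and less RNA per cell cannot be told apart.

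The array medians lay between 6.43 and 6.46. Irradiated replicate 2 stood apart: the SD of its difference from the control mean was 0.437 over annotated probe sets, against 0.252 for irradiated replicate 1, and 93 probe sets lay at least 4-fold above the other arrays there, against 0 in each of the other 3. Results are therefore given for each irradiated array. Lymphoid markers did not bear out the label of a lymphoma: 10 of 11 T cell and 7 of 7 B cell probe sets had a mean under the median of annotated probe sets (6.71), as did 8 of 12 pan-leukocyte probe sets. Ptprc measured 5.49 to 5.64, while Lcp1 measured 11.19 to 11.96 and Srgn 8.01 to 9.89. Of the simple epithelial probe sets 1 of 7 lay under that median, and of the trophoblast probe sets 4 of 10, with Eomes at 9.95 to 10.42 and Elf5 at 5.27 to 5.55. In limma the α-globin probe sets differed by −4.825 and −4.465 (adjusted p = 0.00729 for each). Of the 6 erythroid probe sets 5 were lower, among them those of β-globin (−3.22 and −3.53) and Alas2 (−0.695). Slc4a1 was higher by 0.195. The 6 summed to 53.13 and 53.59 on the control and to 36.95 and 36.69 on the irradiated arrays, a fall that lay mostly in the globin probe sets. All 12 proliferation probe sets were higher after irradiation, with a median difference of 0.7275, summing to 103.44 and 103.55 against 112.59 and 110.01. Of the simple epithelial probe sets 6 of 7 were lower, with a median of −0.325 on irradiated replicate 1 and −0.79 on replicate 2, summing to 78.83 and 78.32 in control against 76.92 and 73.45. Of the neutrophil probe sets 8 of 11 were lower, with a median of −0.66, summing to 73.21 and 74.38 against 71.13 and 69.42, while Ly6g differed by 3.12 (limma adjusted p = 0.00831). Of the trophoblast probe sets 6 of 10 were higher and 4 lower, summing to 70.35 and 70.21 against 74.09 and 83.08. On irradiated replicates 1 and 2 Prl8a9 measured 5.21 and 11.47, against 4.87 and 4.66 in control. The part of all these markers in the proteasome values was not tested.

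Proteasome transcripts were bright on all arrays and differed little between the groups. Of the 51 probe sets, 44 had a mean above the 75th percentile of annotated probe sets, and those of the core, base and lid averaged between 8.62 and 13.22. Differences (irradiated minus control) ran from −0.395 for Psmd4 to 0.505 for Psma8, 24 positive and 27 negative. In limma, 0 of 51 passed the threshold of 0.05 on the adjusted p, against 0.0256% of annotated probe sets. The adjusted p-values ran from 0.496 to 0.991. At an unadjusted p under 0.05 there were 2 of 51, 3.92%, against a background of 9.46%. The 95% interval of the difference lay within 2-fold in either direction for all 51 members and for 94.1% of annotated probe sets. It lay within 1.5-fold for 38 members, 74.5%, against 63.8% of annotated probe sets. Differences up to these bounds are not excluded by the 4 arrays.

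**Figure D1:**
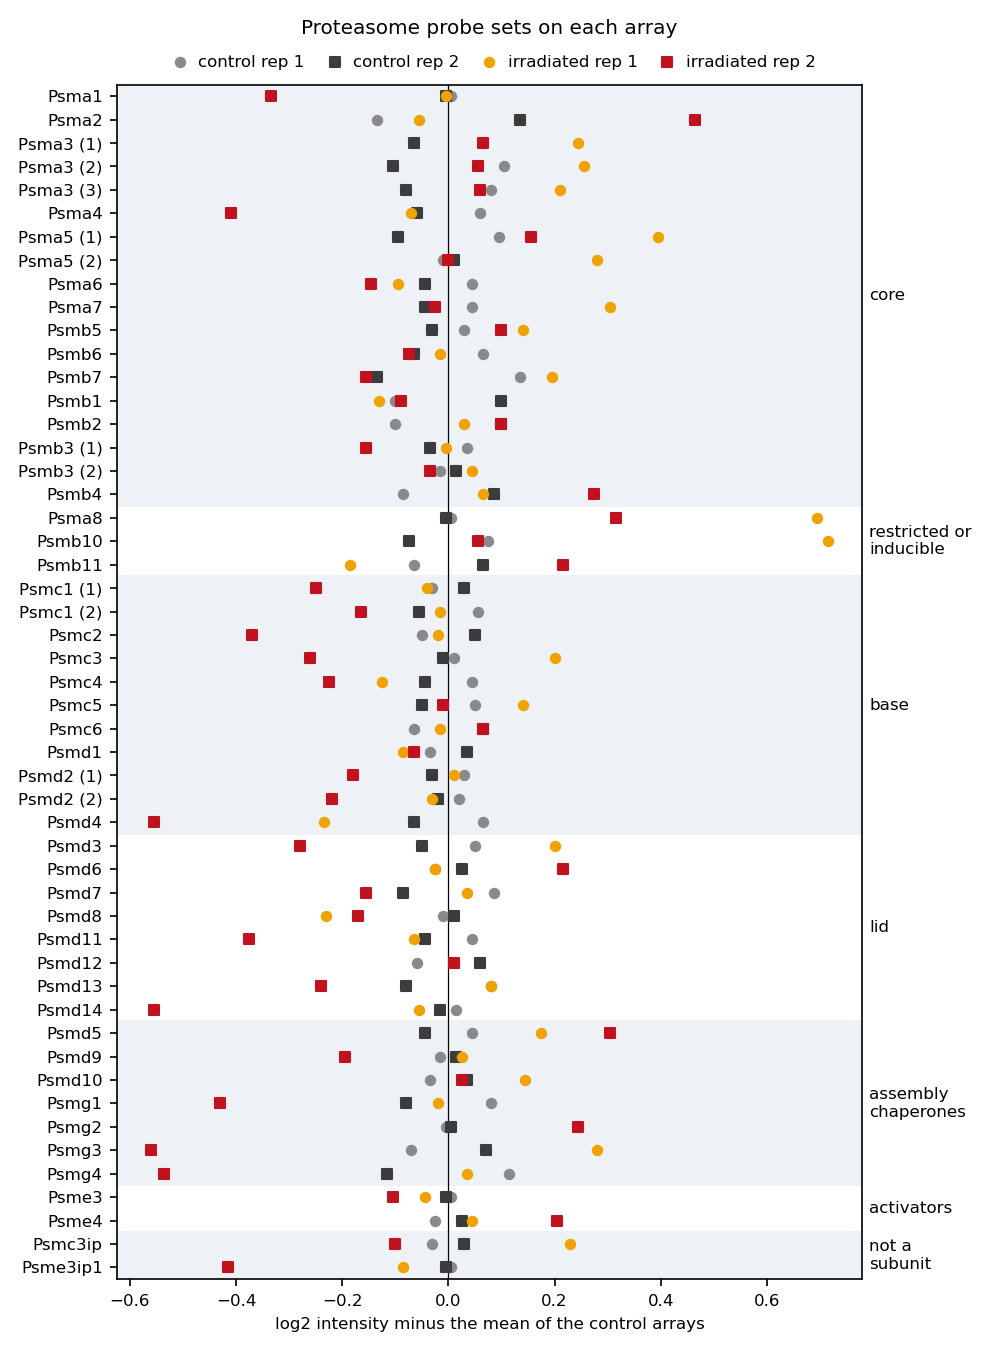
Each point is the log2 intensity of 1 probe set on 1 array minus the mean of the control arrays, for the 51 proteasome probe sets in order of their role; grey and black are control replicates 1 and 2, orange and red are irradiated replicates 1 and 2, and numbers in brackets count the probe sets of a gene. The red squares reach −0.56 for Psmg3 and lie to the left of the orange points for 38 of 51 probe sets.

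The α ring, which gates access to the chamber, was measured by 10 probe sets of 7 genes, Psma1 to Psma7. Its median difference was 0.14, with 7 probe sets higher and 3 lower. Psma3 and Psma5 entered with several probe sets each, all of them higher. By gene, Psma2, Psma3, Psma5 and Psma7 were higher and Psma1, Psma4 and Psma6 lower. Psma5 had the highest difference: one probe set measured 9.13 and 8.94 in control and 9.43 and 9.19 in irradiated arrays, a difference of 0.275 ± 0.14 (SE, limma adjusted p = 0.597). Both irradiated arrays lay above both controls there. The other Psma5 probe set measured 9.18 and 9.20 against 9.47 and 9.19, so that its groups overlapped.

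Psma4 had the lowest difference in the ring. It measured 10.33 and 10.21 in control and 10.20 and 9.86 in irradiated arrays, a difference of −0.24 ± 0.16 (SE, limma adjusted p = 0.643). The groups did not overlap, but irradiated replicate 1 lay just under the lower control. Psma2 had the widest gap between irradiated arrays in the core, 9.95 and 10.47, against 9.87 and 10.14 in control. Here replicate 2 was the higher one. The 3 probe sets of Psma3 differed by 0.135 to 0.155, and those of Psma1, Psma6 and Psma7 by −0.17, −0.12 and 0.14.

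The β ring carries the active sites on Psmb5 (chymotrypsin-like), Psmb6 (caspase-like) and Psmb7 (trypsin-like). Psmb5 measured 12.58 and 12.52 in control and 12.69 and 12.65 in irradiated arrays, and the groups did not overlap. The difference was 0.12 with a 95% interval of −0.16 to 0.40 (limma adjusted p = 0.725). Psmb6 measured 11.41 and 11.28 against 11.33 and 11.27, a difference of −0.045 with an interval of −0.34 to 0.25. Psmb7 measured 10.56 and 10.29 against 10.62 and 10.27, a difference of 0.02 with an interval of −0.43 to 0.47. For Psmb6 and Psmb7 the irradiated arrays overlapped the controls, and the spread within either group exceeded the difference between them.

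The subunits of the ring without an active site, Psmb1 to Psmb4, were measured by 5 probe sets with a median difference of 0.005. Psmb4 was highest, with 12.03 and 12.20 in control and 12.18 and 12.39 in irradiated arrays, a difference of 0.17. Psmb1 was lowest, with 10.10 and 10.30 against 10.07 and 10.11, a difference of −0.11. None of the 5 had groups apart. The pair of Psmb3 probe sets had differences of 0.005 and −0.08, and that of Psmb2 was 0.065.

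The base holds the ATPases Psmc1 to Psmc6, which unfold substrates and push them into the core, and the scaffold and ubiquitin-binding subunits Psmd1, Psmd2 and Psmd4. Of its 11 probe sets, 9 were lower and 2 higher in the irradiated arrays, with a median difference of −0.09. Psmd4, a ubiquitin receptor that catches tagged proteins, had the lowest difference of all members. It measured 10.41 and 10.28 in control and 10.11 and 9.79 in irradiated arrays, so both irradiated arrays lay below both controls. The difference was −0.395 (1.31-fold lower) ± 0.15 (SE), with an interval of −0.78 to −0.01. Its unadjusted p was 0.0476 and its limma adjusted p 0.525. Leaving out irradiated replicate 2 gave −0.235, and leaving out replicate 1 gave −0.555.

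The scaffold Psmd1 measured 12.12 and 12.19 in control and 12.07 and 12.09 in irradiated arrays, a difference of −0.075. The Psmd2 probe sets differed by −0.085 and −0.125. Among the ATPases, Psmc2 was lowest, with 9.57 and 9.67 against 9.60 and 9.25. That difference of −0.195 came from irradiated replicate 2, since replicate 1 lay between the controls. Psmc5 was highest, with 8.64 and 8.54 against 8.73 and 8.58, a difference of 0.065. Psmc3 had the widest gap of the base between irradiated arrays: 9.82 and 9.36, on either side of control values of 9.63 and 9.61. The remaining ATPase differences were −0.145 and −0.09 for Psmc1, −0.175 for Psmc4 and 0.025 for Psmc6.

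The lid was measured by 8 probe sets, 1 for each of Psmd3, Psmd6, Psmd7, Psmd8, Psmd11, Psmd12, Psmd13 and Psmd14. Its median difference was −0.07, with 6 lower and 2 higher. Psmd14, the deubiquitinase of the lid, measured 11.77 and 11.74 in control and 11.70 and 11.20 in irradiated arrays. Both irradiated arrays lay below the controls, replicate 2 by far the more. The difference was −0.305 ± 0.19 (SE, limma adjusted p = 0.633). Leaving out irradiated replicate 2 gave −0.055, and leaving out replicate 1 gave −0.555.

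Psmd8 was lower on both irradiated arrays to a like degree, with 12.11 and 12.13 in control against 11.89 and 11.95, a difference of −0.20 (limma adjusted p = 0.604). It was picked out after its values were seen, for the even pair of irradiated values. Psmd11, a subunit that helps join lid and base, measured 10.89 and 10.80 against 10.78 and 10.47. Psmd6 was the highest of the lid, with 10.77 and 10.82 against 10.77 and 11.01, and its groups overlapped. The differences of Psmd3, Psmd7, Psmd12 and Psmd13 lay between −0.08 and 0.01.

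Core, base and lid were then set side by side over the 4 arrays. The median difference was 0.0925 for the 18 core probe sets, −0.09 for the base and −0.07 for the lid, beside −0.025 over all annotated probe sets. With 1 value for each gene the medians were 0.0425, −0.105 and −0.07. By gene, 8 of the core were higher and 6 lower, beside 2 and 7 of the base and 2 and 6 of the lid. Relative to the control mean, the core median was 0.055 on irradiated replicate 1 and −0.0125 on irradiated replicate 2. The base median was −0.02 and −0.22, and the lid median was −0.0075 and −0.205. The control arrays lay within 0.04 of their mean for all 3. By their medians, base and lid lay near the controls on irradiated replicate 1 and lower on replicate 2. Single subunits departed from this in either direction. On irradiated replicates 1 and 2, Psmd8 was at −0.23 and −0.17, Psmd4 at −0.235 and −0.555 and Psmc4 at −0.125 and −0.225. Psmc3 was at 0.20 and −0.26, Psmd3 at 0.20 and −0.28 and Psmd6 at −0.025 and 0.215. Core minus base was 0.075 and 0.2075 on the irradiated arrays and 0.02 and −0.02 on the controls. Core minus lid was 0.0625 and 0.1925, against 0.01 and −0.01. The control values mirror each other because they are taken relative to their own mean. They therefore show only the gap between the controls. Counted by probe set, core stood above base and lid on both irradiated arrays, by amounts that differed between them. In the core, Psma3 entered 3 times, and Psma5 and Psmb3 2 times each. These array medians were not taken with 1 value for each gene. Base and lid differed by at most 0.015 on any array. These are descriptions of the chosen subunits, with no test.

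**Figure D2:**
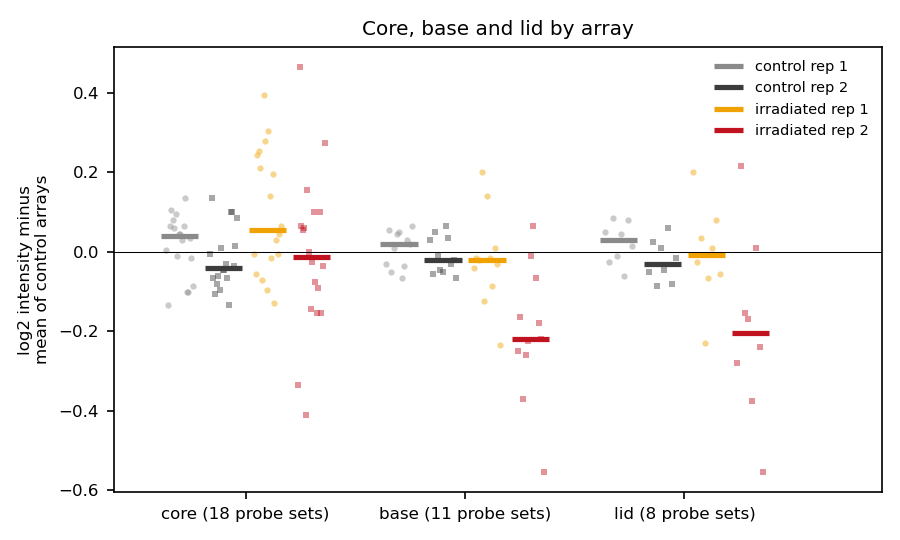
Small points are probe sets of the core, base and lid on each array, as log2 intensity minus the mean of the control arrays, and thick lines are the medians of the array. On irradiated replicate 2 (red) the medians of the base and lid are −0.22 and −0.205 and that of the core is −0.0125.

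The groups were also compared by whether they overlapped. Both irradiated arrays lay below both controls for 5 of 11 base, 3 of 8 lid and 2 of 18 core probe sets, against a background of 23.6% of annotated probe sets. They lay above for 2 core and 0 base or lid probe sets, against 17.9%. Among the 6514 annotated probe sets at least as bright as the dimmest of these, the shares were 29.1% below and 21.7% above. Over all 51 members the groups did not overlap for 18, 35.3%, which is under the 41.5% of annotated probe sets. The separated base probe sets were those of Psmd1, Psmd4, Psmc4 and 1 each of Psmc1 and Psmd2, and those of the lid were Psmd8, Psmd11 and Psmd14.

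The irradiated arrays differed from each other more than the control arrays did. Irradiated replicate 2 was lower than replicate 1 for 38 of 51 members, 74.5%, against 52.2% of annotated probe sets, and the median gap was −0.19 against −0.02. The median size of the gap, either way, was 0.21 between irradiated and 0.09 between control arrays for the members, and 0.20 and 0.10 over annotated probe sets. With 1 irradiated array left out, the spread comes from the control arrays alone, which lay closer together than the irradiated arrays (SD of the difference 0.168 against 0.428), so more probe sets can pass. Leaving out irradiated replicate 1 gave 14 members at an unadjusted p under 0.05, 11 lower (16.6% of annotated probe sets in that fit) and 3 higher (14.2%). Leaving out irradiated replicate 2 gave 5 members, all higher, against 7.24% of annotated probe sets.

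**Figure D3:**
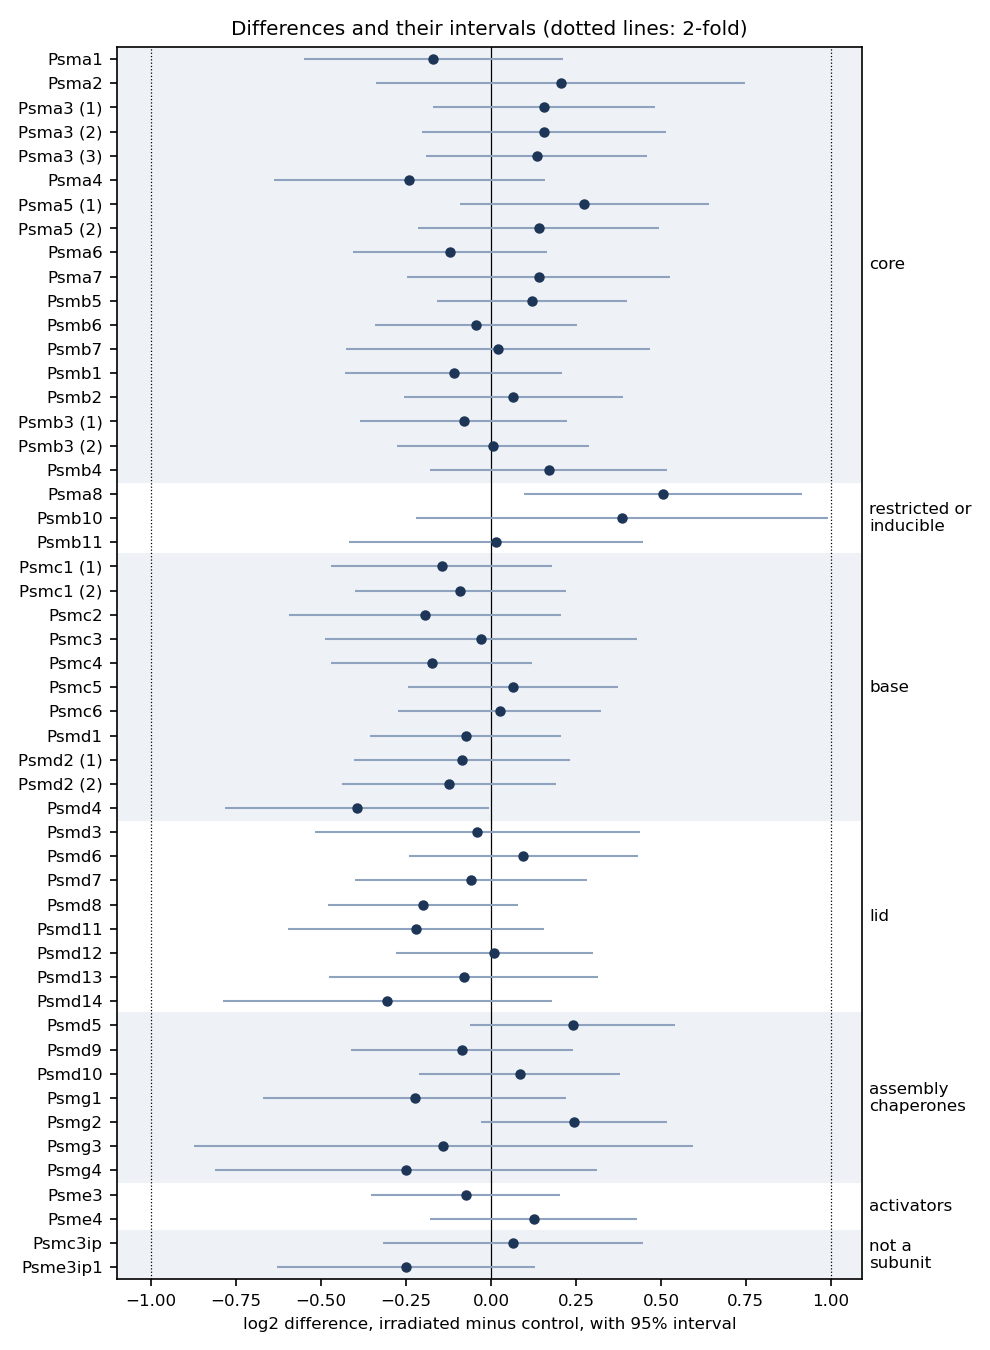
Points are log2 differences, irradiated minus control, of each member and bars are 95% intervals of the limma fit; dotted lines mark 2-fold either way. All 51 intervals lie inside the dotted lines, and those of Psma8 and Psmd4 do not reach 0.

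The assembly chaperones bind unfinished particles and leave before the proteasome is complete. Those of the core, Psmg1 to Psmg4, had a median difference of −0.1825. Psmg2 measured 10.56 and 10.57 in control and 10.81 and 10.81 in irradiated arrays, so that the replicates of each group nearly coincided. Its difference was 0.245 ± 0.11 (SE, limma adjusted p = 0.554), and it stayed between 0.24 and 0.25 whichever array was left out. Psmg4 measured 9.78 and 9.55 in control and 9.70 and 9.13 in irradiated arrays, and Psmg3 measured 6.70 and 6.84 against 7.05 and 6.21. Psmg1 measured 9.81 and 9.65 against 9.71 and 9.30. In these 3, irradiated replicate 2 was the lowest array and replicate 1 was inside or above the range of the controls. Psmg2 works as a pair with Psmg1, and the 2 had differences of opposite sign.

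Among chaperones of the base, Psmd5 measured 9.70 and 9.61 in control and 9.83 and 9.96 in irradiated arrays, a difference of 0.24 (limma adjusted p = 0.578), with both irradiated arrays above the controls. Psmd9 measured 7.77 and 7.80 against 7.81 and 7.59, a difference of −0.085. Psmd10, also known as gankyrin, differed by 0.085. The alternative caps of the core were close to the control level. Psme3 (PA28γ), a nuclear activator, measured 11.42 and 11.41 in control and 11.37 and 11.31 in irradiated arrays. Psme4 (PA200) measured 11.05 and 11.10 against 11.12 and 11.28. Neither overlapped with its controls, and the differences were −0.075 and 0.125 (limma adjusted p = 0.833 and 0.736).

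Not every member is a constitutive subunit. Psma8 is an α subunit of the testis, Psmb11 a β subunit of the thymus and Psmb10 the interferon-inducible counterpart of Psmb7. Psma8 was dim, with 4.10 and 4.09 in control and 4.79 and 4.41 in irradiated arrays, at the 10.2 percentile of annotated probe sets. Its difference of 0.505 was the highest of the members (standard error 0.16, unadjusted p = 0.0246, limma adjusted p = 0.496). Psmb11 was dim as well, with 5.16 and 5.29 against 5.04 and 5.44. Psmc3ip, a factor of meiotic recombination, and Psme3ip1, which binds Psme3, match the letters of the symbols without being subunits. Psmc3ip measured 7.24 and 7.30 against 7.50 and 7.17, and Psme3ip1 measured 10.13 and 10.12 against 10.04 and 9.71, differences of 0.065 and −0.25.

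Psmb10 measured 7.81 and 7.66 in control and 8.45 and 7.79 in irradiated arrays. Its difference was 0.385 with an interval of −0.22 to 0.99 (limma adjusted p = 0.632). Irradiated replicate 1 stood above both controls and replicate 2 lay between the controls, whereas Psmb7 stayed within 0.195 of its control mean on both. Psmb8, the counterpart of Psmb5, measured 7.15 and 7.22 in control and 7.91 and 7.16 in irradiated arrays. Psmb9, the counterpart of Psmb6, measured 7.75 and 7.60 against 7.98 and 7.22. Psme1 and Psme2, which form the PA28αβ cap, measured 9.55 and 9.71 against 10.06 and 9.61, and 10.55 and 10.51 against 11.12 and 10.70. The probe set that lists both Psme2 and Psme2b measured 9.31 and 9.21 against 10.00 and 9.64, a difference of 0.56 (unadjusted p = 0.0162, limma adjusted p = 0.480). For each of the 5 probe sets left out of the members, irradiated replicate 1 was above both controls and replicate 2 was below replicate 1. Replicate 2 itself was above both controls for Psme2 and the probe set shared with Psme2b, within their range for Psmb8 and Psme1, and below both for Psmb9. Their limma adjusted p-values ran from 0.480 to 0.943, and the difference from the constitutive subunits was not tested. Of the constitutive catalytic subunits, Psmb5 and Psmb7 also had irradiated replicate 1 above both controls and above replicate 2.

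**Figure D4:**
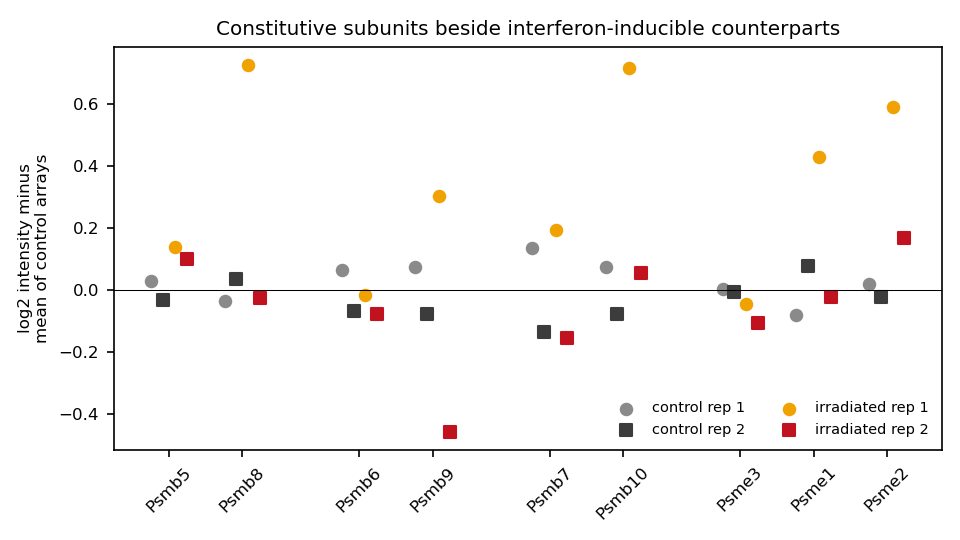
Points give the log2 intensity on each array minus the mean of the control arrays for the catalytic subunits Psmb5, Psmb6 and Psmb7, each beside its interferon-inducible counterpart (Psmb8, Psmb9, Psmb10), and for Psme3 beside Psme1 and Psme2. Irradiated replicate 1 (orange) lies above both controls for Psmb8, Psmb9, Psmb10, Psme1 and Psme2, and also for Psmb5 and Psmb7. It does not for Psmb6 and Psme3.

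Other genes of the pathway came from a set list. Of 7 further subunits and assembly factors, 5 were measured, with 3 higher and 2 lower and a median difference of 0.035. Psmf1, an inhibitor of the core, measured 10.84 and 10.82 in control and 10.61 and 10.39 in irradiated arrays, a difference of −0.33 (unadjusted p = 0.0481, limma adjusted p = 0.525). Uchl5, a deubiquitinase of the base, was higher by 0.245, and Sem1, a small lid subunit, by 0.235, both with groups apart. Of 7 regulators of proteasome genes, 6 were measured, with a median of 0.00. Nfe2l1, the transcription factor that raises proteasome genes when the proteasome is inhibited, measured 9.63 and 9.53 against 9.43 and 9.54. Mafk, a small Maf protein that pairs with it, was higher by 0.355 (unadjusted p = 0.0348, limma adjusted p = 0.503), and Nfe2l2 differed by 0.20 with overlapping groups.

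Of 11 ubiquitin shuttles and proteasome-bound enzymes, 10 were measured, 5 higher and 5 lower, with a median of 0.0225. Ubqln2 (0.25), Zfand2a (0.195) and Ecpas (−0.12) had the smallest p. Only Uba6 (−0.08) of 6 ubiquitin and activating enzyme genes had a probe set with 1 symbol. For the p97 unfoldase, which extracts ubiquitin-tagged proteins, and its cofactors, 6 probe sets of 5 genes had a median of −0.1725. Relative to the control mean, that median was 0.0025 on irradiated replicate 1 and −0.22 on replicate 2. Vcp itself differed by 0.025 and Nploc4 by −0.255. The probe sets of Nsfl1c differed by −0.575 and −0.315, and these differences lay in irradiated replicate 2: they measured 10.81 and 10.61 in control against 10.66 and 9.61, and 11.37 and 11.13 against 11.32 and 10.55. In these lists 0 members passed the limma adjusted threshold.

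Promoters were examined because Nfe2l1 acts on proteasome genes through the antioxidant response element. Of the 45 genes, 37 matched a promoter in the RefSeq table of build GRCm38.p6, taken here as the 250 bases before the start. The 8 without one, which were not searched, were Psma8, Psmb1, Psmb2, Psmb7, Psmc3, Psmd3, Psmd7 and Psmg2. The element was searched as TGACNNNGC and the CCAAT box as CCAAT, each on both strands. The element occurred in 5 of 37 genes, 13.5%, against 12.5% of genes on the array with a promoter, namely Psmb5, Psmb6, Psmc6, Psmd12 and Psmd9. Their differences ran from −0.085 to 0.12 with a median of 0.01, against −0.0775 for members whose promoter lacks it. The CCAAT box occurred in 15, 40.5%, against 38.8%, with medians of −0.075 with it and −0.06 without. Promoters are shown 5′ to 3′ on the gene's strand. They are those of the catalytic subunits searched, Psmb5 and Psmb6, and of the lowest subunits of base and lid, which hold CCAAT boxes. Capitals mark the element in Psmb5 (chr14:54617996-54618245, minus strand) and Psmb6 (chr11:70525107-70525356, plus strand). They mark the CCAAT box, read as ATTGG, in Psmd4 (chr3:95042615-95042864, minus strand) and Psmd14 (chr2:61711444-61711693, plus strand), and in Psmd4 also CCGGAAG, the core of sites bound by ETS factors.
Psmb5: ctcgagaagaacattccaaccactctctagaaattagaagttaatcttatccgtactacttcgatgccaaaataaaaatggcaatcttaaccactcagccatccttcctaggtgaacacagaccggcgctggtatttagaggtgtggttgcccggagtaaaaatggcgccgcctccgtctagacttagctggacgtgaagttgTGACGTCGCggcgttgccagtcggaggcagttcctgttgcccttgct
Psmb6: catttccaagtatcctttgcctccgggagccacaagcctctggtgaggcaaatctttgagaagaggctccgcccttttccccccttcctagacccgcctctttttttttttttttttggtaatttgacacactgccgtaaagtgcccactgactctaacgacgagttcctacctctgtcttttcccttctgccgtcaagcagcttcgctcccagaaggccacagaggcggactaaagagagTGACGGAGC
Psmd4: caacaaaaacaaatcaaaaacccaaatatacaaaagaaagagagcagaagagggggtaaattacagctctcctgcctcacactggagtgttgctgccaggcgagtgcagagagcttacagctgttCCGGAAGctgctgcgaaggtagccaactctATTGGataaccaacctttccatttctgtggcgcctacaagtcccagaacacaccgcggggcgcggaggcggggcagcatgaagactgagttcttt
Psmd14: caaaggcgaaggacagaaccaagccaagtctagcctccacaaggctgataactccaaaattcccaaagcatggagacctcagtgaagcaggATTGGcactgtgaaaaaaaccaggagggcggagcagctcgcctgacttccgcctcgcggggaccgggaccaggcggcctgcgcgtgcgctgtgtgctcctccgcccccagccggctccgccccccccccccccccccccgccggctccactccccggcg
In these windows a match is a description of the letters. The element lies at the last bases before the start in Psmb6. Capitals mark these 3 motifs alone.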

How the data were processed

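Total RNA (300 ng) was labelled with biotin for one-colour arrays, per the labels' protocols. The deposited values are log2 probe set intensities made by the authors with RMA, per the submitters' processing notes, which give no version. The build used in that step is not stated in these sources. RMA forces a common distribution on the arrays, so a shift common to most transcripts is hidden, and dim probe sets have compressed folds. The groups were tested with limma 3.58.1 under R 4.3.3 (lmFit and eBayes, two-sided, 2 residual and 3.11 prior degrees of freedom) over all 23410 annotated probe sets, with Benjamini-Hochberg adjustment and a threshold of 0.05. Of these, 21789 list 1 symbol and 1621 several, and 12146 of the 35556 rows are not listed. All 51 members matched a RefSeq gene by Entrez identifier. Probe sequences were not used, so signal shared between a gene and its copies, as in the 5 genes with several probe sets, was not examined. Intervals come from the moderated fit. Their precision is limited by the number of arrays.

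Members and lists were chosen with earlier results of these data known. Values on every array are given for the catalytic subunits, for the highest and lowest difference in each role, for members with an unadjusted p under 0.05 and for the widest gap between irradiated arrays in core, base and lid. Array values of Psmd8, Psmd11, Psmg1, Psmg3, Nfe2l1 and Nsfl1c, and the difference of Vcp, were added after the values were seen. Alternatives were probe sets with 1 symbol, the brightest probe set of a gene, filters at the 25th percentile and the median, every row, quantile normalization, median centring, the replicate number as a block, eBayes with trend or robust, and each array left out. Averaging the probe sets of each gene was added after the data were seen. The fit was run on simulated data with the same spread in both groups. The irradiated arrays here differed from each other more than the controls did. That run therefore cannot show how the fit behaves with unequal spreads.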

Additional observations from a re-analysis of the deposited data

How the results depend on the processing

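With 2 arrays a group, the number of arrays limits every value here. In all 14 other fits, 0 members passed the adjusted threshold. The count at an unadjusted p under 0.05, 2 in the fit described, was 1 with either filter on dim probe sets, with every row, with quantile normalization and with median centring, 3 with an intensity trend in eBayes (Psma8, Psmd4 and Psmg2), and 0 when at least a 1.5-fold difference was also required. It ran from 0 to 14 with 1 array left out. The number of members with separated groups ran from 27 to 39 with 1 array left out, where fewer arrays separate more easily. The share of all annotated probe sets with separated groups was not taken in those fits, so these counts have no background. In the fits on all 4 arrays, without the fold requirement, 7.67% to 15.4% of the probe sets tested had an unadjusted p under 0.05. With 1 array left out, the core median ran from −0.0125 to 0.0775, the base median from −0.22 to −0.02 and the lid median from −0.205 to −0.0075. No other alternative moved the 3 medians by more than the replicate SD of the array medians (0.0523, 0.102 and 0.1032). Directions of 10 named members turned only with an array left out: Psma2 (−0.055 to 0.465), Psmb11 (−0.185 to 0.215), Psmb6 (−0.11 to 0.02), Psmb7 (−0.155 to 0.195), Psmc3 (−0.26 to 0.20), Psmc3ip (−0.10 to 0.23), Psmc5 (−0.01 to 0.14), Psmd6 (−0.025 to 0.215), Psmd9 (−0.195 to 0.025) and Psmg4 (−0.535 to 0.035). The cause was not tested. With the replicate number as a block, 2 members had an unadjusted p under 0.05 and 0 passed the adjusted threshold; the deviations of same-numbered arrays correlated with r = 0.004 over annotated probe sets, which are not independent, so the number was not taken to pair the samples.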

Other observations

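Beside the elements named above, 5 further motifs were searched in the same promoters after the values were seen. The letters CCGGAAG, on both strands, occurred in 13 of 37 proteasome genes, 35.1%, against 10.7% of genes on the array with a promoter. These were Psma6, Psmc1, Psmc2, Psmc3ip, Psmc6, Psmd11, Psmd12, Psmd2, Psmd4, Psmd6, Psme3, Psme4 and Psmg1, with 1 gene of the core among them. Psmb1, Psmb2 and Psmb7 of the core were not searched, nor were Psmc3 of the base and Psmd3 and Psmd7 of the lid. The median difference of the 13 genes with these letters was −0.105, from −0.395 to 0.125. That of the other genes of the 37 searched was −0.0412. The motif was picked out of 7 for its share, and the shares were not tested. The median GC content was 57.6% for the member promoters and 56.8% for promoters of genes on the array.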
